A study of Mus musculus with 9 samples.

Results

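Fibro-inflammatory progenitors (FIPs) are the adipocyte progenitor cells (APCs) of epididymal adipose tissue that carry the surface peptidase Dpp4 and the secreted peptidase inhibitor Pi16. In single-nucleus RNA sequencing of 9 libraries, 76356 nuclei held 500 to 3000 detected genes and at most 40000 UMIs (unique molecular identifiers, 1 per captured RNA molecule). A nucleus was placed in the progenitor gate when it had at least 1 UMI in 2 or more of Pdgfra, Lama2, Abca8a, Ebf2 and Fbn1 and in no more than 1 of Muc16, Upk1b, Bnc1, Msln and Ptprc, which mark mesothelium and leukocytes. Of the 26892 nuclei in the gate, 7603 were selected as FIPs because their UMIs of Dpp4, Pi16, Sema3c, Sema3e, Opcml and Creb5 summed to at least 3 and exceeded those of Bmper, Egfros, Nox4, Fgf7, Col6a5, C7 and Sned1, genes of committed progenitors. FIPs were thus 9.96% of all nuclei and 28.3% of the gate. Since these genes chose the nuclei, their values below are a description.

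In adipose tissue, Dpp4 and Pi16 progenitors lie in the fibrous reticular interstitium around the fat lobules and vessels and are regarded as an early, multipotent stage from which committed preadipocytes arise. They resist adipogenic differentiation, secrete matrix, and in the visceral depot are known for inflammatory signalling. Committed preadipocytes sit closer to adipocytes and already carry part of the adipogenic programme.

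All groups were male C57BL/6J mice without transgene or deletion, and each library pooled the epididymal fat nuclei of 5 mice, so that every group was 1 library. Control groups, all labelled as chow, were fed a low-fat diet by the study's methods. Group C was sampled on it at 18 weeks of age, and groups CC and CCC had standard chow in its place for the last 8 weeks, to 26 and 39 weeks. Obese group H had 12 weeks of high-fat diet (HFD) and was 18 weeks old, and obese group HH had 25 weeks of HFD and was 31 weeks old. Weight-loss (WL) groups HC and HHC had the same 12 or 25 weeks of HFD followed by 8 weeks of chow, and were 26 and 39 weeks old. At 30 weeks, group CCH had been given HFD for the last 4 weeks only, and group HCH had been given 12 weeks of HFD, 8 weeks of chow and again 4 weeks of HFD (both called late HFD). The sample descriptions carry a code, here called the set, whose meaning the labels do not state: S075 for C, H, HH, CCH and HCH and S019 for CC, CCC, HC and HHC. HH and CC are thus compared across sets, and the other 4 comparisons are within a set. All 4 libraries on HFD when sampled (H, HH, CCH and HCH) were of S075, where C alone was not on HFD. Being on HFD and set can thus be told apart by C only. With 1 library per group no test between diets was possible, and the 95% intervals given cover counting error only, not the spread between mice or libraries. The libraries C, CC and CCC, together called chow here, which differed in age and set, with C alone not moved to standard chow, serve as a yardstick for differences that HFD did not make.

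Library totals ran from 22599619 UMIs in CCC to 66615262 in HHC, 408905640 in all. FIPs had a median of 2157 UMIs in HH to 3884 in CCH. In the 36 pairs of libraries, 8 to 55 barcodes were shared, at most 0.493% of the smaller library, and no more than 1 of these was a FIP barcode in any pair. RNA of other cells moved with the diet groups and is given before the results. Summed over 15 macrophage markers, FIPs held 561 to 1034 CPM (UMIs per 1e+06 of the summed UMIs) in C, CC, CCC and CCH, 2053 in HC, and 2962 to 5193 in H, HH, HHC and HCH, and none of the 15 was at 0 in any library. At least 3 of these markers were detected in 8.13% to 26.6% of FIPs of C, CC, CCC and CCH, in 63.8% in HC and in 93.7% to 97.9% of the other 4 libraries. The 10 adipocyte markers summed to 3190 to 3905 CPM in C, CC and CCC, 1604 in HC and 201 to 957 in H, HH, HHC, CCH and HCH. The FIPs of C held 388 adipocyte-rich nuclei (22.4%), against 8 (1.43%) in H, a nucleus being adipocyte-rich when its share of UMIs in these markers exceeded the 95th percentile of macrophage nuclei of its library. In C these nuclei had a median of 5802 UMIs, against 2469 in its other FIPs. They thus weighed more in the summed counts of C than by number. Smooth muscle and pericyte markers summed to 1615 CPM in HC and to 85 to 436 CPM elsewhere. Endothelial markers summed to 341 (C), 619 (CC) and 583 CPM (CCC) on chow, 133 (H) and 165 (HH) in obesity and 783 (HC) and 397 (HHC) after WL. Epididymal epithelial markers summed to 172 (C), 564 (CC) and 319 CPM (CCC), 51.6 (H) and 31.7 (HH), and 607 (HC) and 116 (HHC). Values are also given without the 735 adipocyte-rich nuclei. Without nuclei with 3 or more macrophage markers they are given for Amph and, as counts, in the closing section only. As each library has its own limit, leaving out adipocyte-rich nuclei took adipocyte RNA mostly from C. On chow the markers then summed to 719 (C), 3032 (CC) and 1994 CPM (CCC). Their median log2 ratio to the chow controls was still −1.92 (H) and −3.69 (HH) in obesity and −1.99 (HC) and −1.87 (HHC) after WL. Values without these nuclei thus still hold adipocyte RNA that moves with the groups, and its part in the results was not tested.

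The 6 markers were not evenly carried. Opcml, a membrane-anchored adhesion molecule, had 1379 to 2930 CPM and Creb5, a transcription factor, 1104 to 2882 CPM, so that these long genes gave most of the UMIs. Sema3c and Sema3e, secreted semaphorins, had 448 to 1405 and 110 to 745 CPM. Dpp4 (GRCm38, chr2:62330073-62412231, minus strand) stood at 233 (C), 279 (CC) and 315 CPM (CCC) on chow, 528 (H) and 494 (HH) in obesity, 221 (HC) and 344 (HHC) after WL, and 579 (CCH) and 513 (HCH) on late HFD. Its 4 highest values were those of the libraries whose mice were on HFD when sampled, all of the same set. The WL libraries lay just below (HC) and just above (HHC) the range of chow. Pi16 (chr17:29317680-29330593, plus strand) stood at 338, 168 and 263 CPM in the chow libraries C, CC and CCC, 923 (H) and 979 (HH) in the obese ones, 127 (HC) and 241 (HHC) after WL, 405 in CCH and 452 in HCH. Obese FIPs thus had the most Pi16, and HC had less of it than any chow library.

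Of all FIPs, 65.4% had a UMI of Dpp4 or Pi16, from 43.8% in HC to 80.1% in H. Committed progenitors, chosen by the mirrored rule, had one in 11.7% to 23.6% of nuclei, and macrophage nuclei, which should lack Pi16, in 11.1% to 21.5%. Median depth was 2157 to 3884 UMIs in FIPs, 2329 to 3997 in committed progenitors and 2235 to 3541 in macrophage nuclei. At the threshold itself, 738 FIPs (9.71%) had a sum of exactly 3 and 833 nuclei of the gate had a sum of 2 above their committed sum. Another 585 FIPs (7.69%) exceeded their committed sum by 1 UMI, and 434 nuclei of the gate were tied.

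The label was set beside genes that the rule did not use, in FIPs and in the 12466 committed progenitors of the same libraries. Both sets were cut from the same nuclei, and the gene lists were chosen with earlier results of these data known. These are thus levels side by side, neither a test nor independent support for the label. Of 4290 genes, 468 (10.9%) were higher in FIPs in all 9 libraries and 352 (8.21%) were lower in all 9. On the list of interstitial progenitor genes, 14 of 17 were higher in all 9 and none was lower, with 10 of the 17 at least 2-fold higher in every library, as were 26 (0.606%) of the 4290 genes. Cd55, a membrane regulator of complement, was higher by 1.58 to 2.97 (log2), and Dact2, a modulator of Wnt and TGF-β signalling, by 3.35 to 5.87. On the list of committed preadipocyte genes, 2 of 12 were higher in all 9 and 3 were lower, with a median of −0.28. On lists not independent of these data, genes outside the rule thus went with the label of interstitial, Dpp4 and Pi16 progenitors. They did not bear the words fibro-inflammatory as a whole: of 9 NF-κB and cytokine genes 1 was higher in all 9 libraries and 2 were lower (median −0.23), of 18 collagen chains 1 was higher and 7 lower (−0.32), and of 21 matrix glycoprotein and crosslinking genes 7 were higher and 3 lower (0.15). The name FIPs is kept below as that of Dpp4 and Pi16 progenitors only.

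Among all genes, the 10 with the largest least ratio were Adamts16, Dact2, Efhd1, Ano3, Fndc1, Cd55, Tmtc2, Ackr3, Limch1 and Rgs6. Adamts16, a secreted metalloprotease, was higher in FIPs by 3.67 to 8.19 (log2), though with as few as 2 UMIs in committed progenitors. Efhd1, a mitochondrial calcium-binding protein, was higher by 2.95 to 4.88, the channel-family gene Ano3 by 2.55 to 3.51 and Fndc1, a fibronectin-domain protein, by 1.71 to 2.45. The 5 genes lowest in FIPs were Pde11a, Lrrtm3, L3mbtl4, Adam12 and Spon1. Pde11a, a cyclic nucleotide phosphodiesterase, stood at log2 ratios of −4.06 to −2.66 and the metalloprotease gene Adam12 stood at −1.95 to −1.55.

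**Figure D1:**
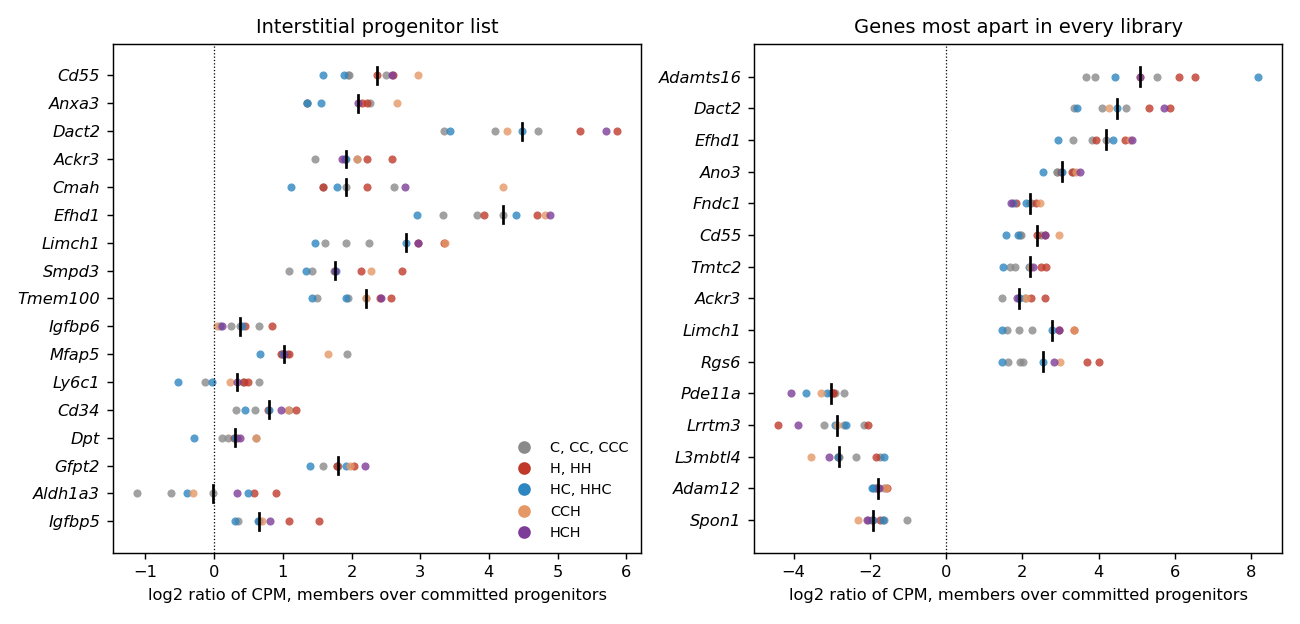
Log2 ratio of CPM in FIPs (members) to CPM in committed progenitors of the same library, for the 17 genes of the interstitial list on the left and the 10 highest and 5 lowest genes on the right. Each point is 1 of 9 libraries, coloured by diet, the black tick is their median and the dotted line marks equal levels: Dact2 lies between 3.35 and 5.87 and Pde11a between −4.06 and −2.66.

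FIPs and committed progenitors also differed in which matrix and signalling genes they carried. Of 18 collagen chains, Col14a1, which coats collagen fibrils, was higher in FIPs in all 9 libraries (median log2 ratio 1.81), and 7 chains were lower in all 9, among them the basement membrane genes Col4a1, Col4a2 and Col15a1. Fibronectin (Fn1, 1.15) and the hyaluronan synthase Has2 (1.43) were higher in all 9, whereas Fbln1, Lum and Dcn were lower in all 9. The BMP ligand gene Bmp6 was higher (1.84) as was Fstl1, a secreted follistatin-like protein (0.92). Growth factor genes went both ways, with Fgf2 (0.91) and Fgf1 (0.79) higher and Igf1 (−1.38), Vegfc (−1.24), Fgf10 (−1.10) and the PDGF receptor gene Pdgfrb (−0.95) lower in FIPs of every library.

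Next, the share of FIPs in the progenitor gate was compared between diets. It was 40.3% in C (95% Clopper-Pearson interval 38.8 to 41.7), 26.0% in CC (24.2 to 27.9) and 24.4% in CCC (22.7 to 26.2). In obese mice it was 25.9% in H (24.1 to 27.8) and 23.9% in HH (22.5 to 25.3), and after WL 14.1% in HC (12.8 to 15.5) and 16.6% in HHC (15.5 to 17.9). The highest share was that of CCH, 52.0% (50.1 to 54.0), with 28.9% (27.4 to 30.5) in HCH. Both WL libraries thus lay below every other library, and CCH lay above all.

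As differences of shares, H minus C came to −14.4 percentage points (Newcombe interval −16.7 to −12.0), HC minus CC to −11.9 points (−14.2 to −9.64) and HHC minus CCC to −7.76 points (−9.91 to −5.64). HCH minus CCH was −23.1 points (−25.6 to −20.6). HH differed from CC by −2.15 points (−4.45 to 0.11), an interval that holds 0, and from C, of its own set, by −16.4 points. Of the chow yardstick, CC minus C, across sets, came to −14.2 points (−16.6 to −11.9). The difference of H from C was close to this. Within a set, CCC differed from CC by −1.61 points (−4.15 to 0.93), less than HC from CC and HHC from CCC in that same set. HCH minus CCH was beyond both chow differences. These differences depended on the rule: counting only FIPs with a UMI of Dpp4 or Pi16, H minus C was −2.58 points, HH minus CC 3.44, HC minus CC −8.53, HHC minus CCC −3.19 and HCH minus CCH −17.9. The genes of the rule moved in these comparisons too. Summed in FIPs, the 7 committed genes were at log2 ratios of 1.02 (H), 0.73 (HH), 0.54 (HC), 0.67 (HHC) and 0.53 (HCH). The 6 markers were at 0.51, 0.92, 0.09, 0.37 and −0.05 in the same order. How far such levels, rather than numbers of cells, shaped the shares was not tested.

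Set against committed progenitors, FIPs numbered 71.6 to 135 per 100 in chow, 182 in CCH, 62.6 in HCH, 42.0 (H) and 39.4 (HH) in obesity, and 24.2 (HC) and 27.4 (HHC) after WL. On this ratio the obese and WL libraries all lay below chow, HH included. Of all nuclei, FIPs were 14.9% (C), 13.8% (CC) and 9.70% (CCC) on chow, 5.68% (H) and 6.80% (HH) in obesity, 6.87% (HC) and 6.66% (HHC) after WL, 18.4% in CCH and 9.66% in HCH. Here HH minus CC was −7.03 points, H minus C −9.22, HC minus CC −6.96, HHC minus CCC −3.05 and HCH minus CCH −8.75. Macrophage nuclei share this denominator: nuclei with 5 or more macrophage markers numbered 254 to 1127 in C, CC and CCC, 6895 (H) and 8270 (HH) in obesity, 1242 (HC) and 4919 (HHC) after WL, and 1572 (CCH) and 5514 (HCH) on late HFD. The rule needs 3 UMIs. Nuclei with 1500 UMIs or more were thinned to that number, which left out 3334 of 11647 nuclei in C, 3421 of 13330 in HH and 2072 of 5771 in CCC, but 340 of 4144 in CC, so that the thinned shares rest on unequal parts of the libraries. The thinned shares of the gate were 42.0% (C), 25.3% (CC) and 21.5% (CCC) on chow, 25.0% (H) and 22.8% (HH) in obesity, 13.4% (HC) and 17.4% (HHC) after WL, 54.3% in CCH and 31.0% in HCH.

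**Figure D2:**
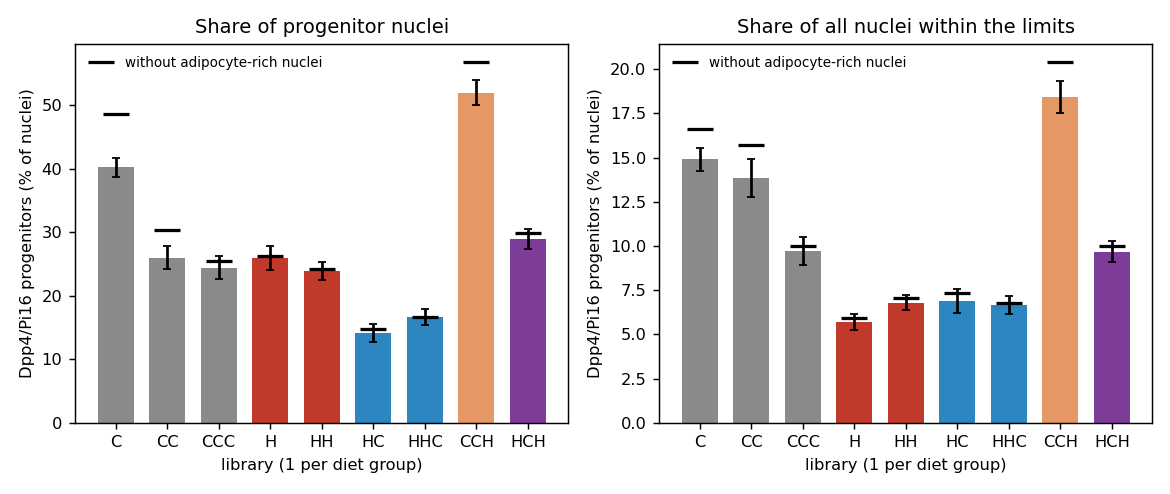
Share of FIPs in each library, as percent of the progenitor gate on the left and of all nuclei on the right, with 95% Clopper-Pearson intervals that cover counting error only and black ticks for the share without adipocyte-rich nuclei. Each bar starts at 0 and stands for 1 library, and HC and HHC have the lowest shares of the gate, 14.1% and 16.6%, and CCH the highest, 52.0%.

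For gene levels, the UMIs of all FIPs of a library were summed and given as CPM, and a gene was counted as higher or lower at a 2-fold or larger ratio of CPM among the 4309 genes with a mean of at least 50 CPM. As this mean was over all 9 libraries, a gene low in some libraries entered through those where it was high. The counts and named genes are thus a description. Of the 4309 genes, 438 (10.2%) were higher and 358 (8.31%) lower in H against C, and 500 (11.6%) were higher and 393 (9.12%) lower in HH against CC. After WL the counts were 146 (3.39%) higher and 147 (3.41%) lower in HC against CC, and 140 (3.25%) higher and 203 (4.71%) lower in HHC against CCC. In HCH against CCH 237 genes (5.5%) were higher and 41 (0.951%) lower. Between chow libraries, 237 (5.5%) were higher and 116 (2.69%) lower in CC against C, and 48 (1.11%) higher and 24 (0.557%) lower in CCC against CC. The WL comparisons, each within the S019 set, had more such genes in both directions than CCC against CC, also of that set. Against CC with C, which crossed sets, they had fewer higher genes and more lower genes. In HH against CC the median of all genes was at 0.12 (log2), and in the other 4 comparisons between −0.07 and 0.08.

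Without adipocyte-rich nuclei, the shares in H against C were 7.4% higher and 5.01% lower, in HH against CC 11.3% and 7.77%, in HC against CC 3.83% and 4.29%, in HHC against CCC 3.06% and 3.83% and in HCH against CCH 5.89% and 0.348%. With all FIPs, adipocyte-rich nuclei included, both obese comparisons together had 320 genes (7.43%) higher and 261 (6.06%) lower. Both WL comparisons had 72 (1.67%) higher and 66 (1.53%) lower. HH against CC and HC against CC share the CC library.

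Genes of the interstitial list were higher in obese FIPs. In H against C, 12 of 17 were higher and 1 lower (median log2 ratio 1.39), and in HH against CC 12 were higher and none lower (1.54). Mfap5, a microfibril protein of elastic matrix, had 995 CPM in H and 818 in HH, against 229 (C), 109 (CC) and 165 (CCC) on chow, with 107 (HC) and 307 (HHC) after WL, and 546 (CCH) and 623 (HCH) on late HFD. Obese FIPs had the most, with a log2 ratio of 2.12 (95% interval 2.01 to 2.23) for H against C and 2.91 (2.70 to 3.12) for HH against CC. Cd55 had 302 (C), 176 (CC) and 283 CPM (CCC) on chow, 946 (H) and 647 (HH) in obesity, 185 (HC) and 338 (HHC) after WL, and 1051 (CCH) and 619 (HCH) on late HFD. All 4 libraries on HFD were above the other 5, of which C alone was of their set. The WL libraries were near their chow controls, with log2 ratios of 0.07 (−0.17 to 0.32) and 0.26 (0.08 to 0.43).

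Higher in both obese comparisons were 11 of the list, namely Cd55, Dact2, Ackr3, Cmah, Efhd1, Tmem100, Igfbp6, Mfap5, Cd34, Dpt and Aldh1a3. Without adipocyte-rich nuclei, 5 of these stayed past 2-fold in both (Cd55, Dact2, Cmah, Tmem100 and Mfap5), and the medians were 0.86 in H and 1.40 in HH. With C, of its own set, as control of HH, 7 of 17 were then higher and 1 lower (0.57). In CC against C, 1 was higher and 6 lower (−0.85). Summed without these nuclei, the list had 4852 CPM in C (3267 with them) and 5272 to 6808 in the 4 libraries on HFD. It had 2306 to 3739 in CC, CCC, HC and HHC. Committed progenitors had a like pattern in the obese comparisons, with 6 of 14 higher and 1 lower in H (median 0.87) and 8 of 14 higher and 1 lower in HH (1.15). Of all 4288 genes tested there, 12.8% were higher and 9.72% lower in H against C, and 13.9% and 10.1% in HH against CC. Whether FIPs differed from committed progenitors in this was not tested. The 5 progenitor genes of the rule, summed, were themselves at log2 ratios of 0.79 and 0.81 in these comparisons. After WL, none was higher and 1 lower in HC against CC (median −0.12), and 1 was higher and 2 lower in HHC against CCC (0.34). Ly6c1 was the gene lower in both, at log2 ratios of −2.19 (−2.85 to −1.58) and −1.20 (−1.57 to −0.84), though its reads cannot be told apart with certainty from those of its near-identical neighbour Ly6c2.

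The neutral sphingomyelinase gene Smpd3 was the gene of the list lower in H against C, at −2.06 (−2.26 to −1.87). It had 586, 155 and 122 CPM in the chow libraries C, CC and CCC, 140 (H) and 158 (HH) in the obese ones, 121 (HC) and 208 (HHC) after WL, 425 in CCH and 222 in HCH. Only C and CCH stood apart, both above 400 CPM, and its ratio in HH against CC was 0.03 (−0.21 to 0.26).

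**Figure D3:**
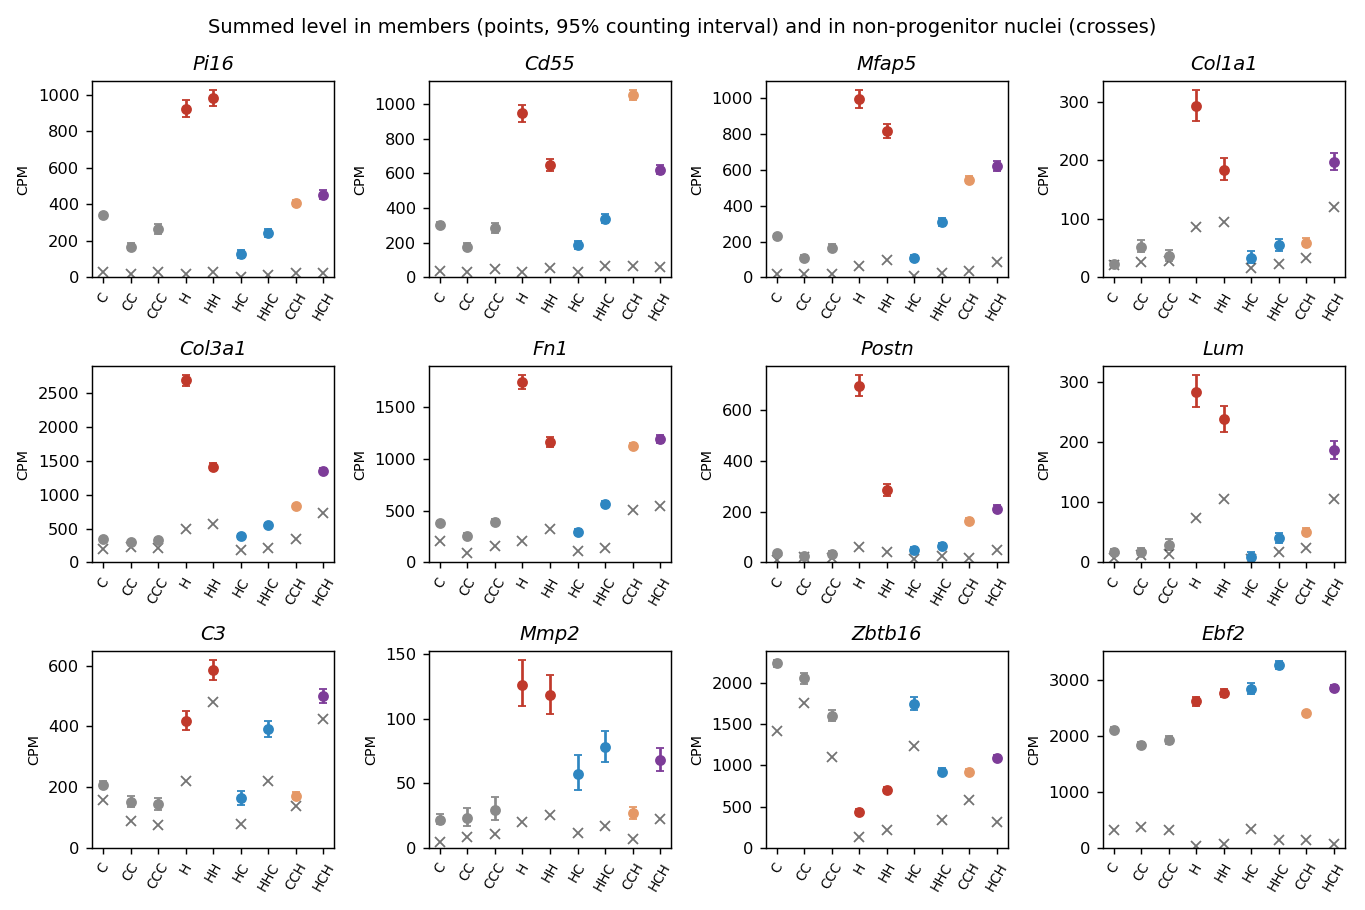
CPM of 12 genes in FIPs of each of the 9 libraries (points, with 95% Poisson intervals that cover counting error only) and in non-progenitor nuclei of the same library (crosses), on linear axes that start at 0. Pi16 reaches 923 CPM in H and 979 in HH, and stands at 127 in HC and 241 in HHC, while Mmp2 is above its chow controls in both WL libraries.

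Genes of fibrillar and related collagens were higher in obesity. Of 17 chains, 11 were higher in H against C and 9 in HH against CC, and none was lower (medians 1.33 and 1.14). Col3a1, a fibrillar collagen of reticular fibres, had 2691 CPM in H and 1417 in HH, against 350 (C), 297 (CC) and 324 (CCC) on chow, with 384 (HC) and 551 (HHC) after WL, and 834 (CCH) and 1356 (HCH) on late HFD. Its 4 highest libraries were those on HFD, all of the same set. The log2 ratio was 2.94 (2.86 to 3.02) for H against C and 2.25 (2.12 to 2.39) for HH against CC. Col1a1, the main fibrillar collagen, had 23.2 (C), 52.1 (CC) and 36.4 CPM (CCC) on chow, 292 (H) and 183 (HH) in obesity, 33.6 (HC) and 55 (HHC) after WL, and 59.3 (CCH) and 197 (HCH) on late HFD.

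Col1a1 was thus high in H, HH and HCH, while CCH, after its first 4 weeks of HFD, was just above the range of chow. Higher in both obese comparisons were Col1a1, Col1a2, Col3a1, Col6a1, Col6a2, Col6a3, Col8a1 and Col14a1, and 6 of these 8 without adipocyte-rich nuclei. The list then had 8 higher and 2 lower in H against C (median 0.88) and 9 higher and none lower in HH against CC (1.02). In committed progenitors of the same libraries the list's medians were 1.92 and 0.85, and all 20 chains had at least as many CPM in FIPs as in non-progenitor nuclei of H and HH. After WL, 1 of 17 was higher in HC against CC (median 0.25) and 1 lower in HHC against CCC (0.03). The gene lower there was Col15a1, at 72.5 CPM against 188 (log2 ratio −1.38, −1.67 to −1.09).

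Matrix glycoproteins, proteoglycans and crosslinking enzymes gave a like picture, with 13 of 20 higher in H against C and 14 in HH against CC, none lower (medians 1.34 and 1.37). Fn1 had 382, 260 and 389 CPM in the chow libraries C, CC and CCC, 1747 (H) and 1168 (HH) in the obese ones, 292 (HC) and 564 (HHC) after WL, 1126 in CCH and 1193 in HCH. The libraries on HFD, all of the same set, were again the 4 highest, and HHC lay between them and chow at 0.54 (0.39 to 0.68) against CCC. Postn, a matricellular protein of tissue repair, had 694 CPM in H and 285 in HH, against 37.3 (C), 26.1 (CC) and 34.4 (CCC) on chow, with 47.2 (HC) and 66.3 (HHC) after WL, and 164 (CCH) and 212 (HCH) on late HFD. It was above its control in both WL libraries, by 0.86 (0.28 to 1.43) and 0.95 (0.48 to 1.43) on the log2 scale, short of 2-fold.

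In both obese comparisons 11 genes of this list were higher, namely Fn1, Postn, Fbln2, Lum, Dcn, Bgn, Ogn, Vcan, Loxl1, Plod2 and Has2. Among them 6, Fn1, Postn, Fbln2, Lum, Bgn and Has2, stayed so without adipocyte-rich nuclei (medians 0.75 and 1.22). In committed progenitors 14 of 19 were higher in H and 13 in HH, none lower (medians 1.36 and 1.35), beside 12.8% and 13.9% of all genes higher there. None of the 20 was past 2-fold in either WL comparison (medians 0.01 and 0.31), and in HCH against CCH 3 were higher and 1 lower (0.03).

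Among matrix proteases and their inhibitors, 8 of 13 were higher in H against C and 5 in HH against CC (medians 1.11 and 0.64), none lower. The 5 higher in both were Mmp2, Mmp23, Adamtsl3, Timp2 and Plat, and without adipocyte-rich nuclei Mmp2, Mmp23 and Adamtsl3 (medians 0.59 and 0.65). Mmp2, a gelatinase, was the only gene of the lists of extracellular matrix that was also past 2-fold in both WL comparisons. It had 21.6 (C), 22.9 (CC) and 29.1 CPM (CCC) on chow, 127 (H) and 118 (HH) in obesity, 56.8 (HC) and 77.7 (HHC) after WL, and 26.5 (CCH) and 68.1 (HCH) on late HFD. Being under 50 CPM on chow, Mmp2 reached the mean of 50 CPM through the libraries where it was high. Every library with an earlier or long HFD was above chow, and CCH lay within the range of chow.

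As log2 ratios, Mmp2 stood at 1.31 (0.74 to 1.89) in HC against CC, 1.42 (0.93 to 1.93) in HHC against CCC and 1.36 (1.05 to 1.68) in HCH against CCH, and without adipocyte-rich nuclei at 1.34, 1.23 and 1.30. Non-progenitor nuclei had 4.07 to 25.5 CPM of it, below FIPs in every library. In committed progenitors its ratios were 1.12, 1.15 and 1.60. Adamtsl3, a glycoprotein of the ADAMTS-like family, was higher in obesity by 1.92 (1.77 to 2.07) and 1.99 (1.77 to 2.22), and Timp2, an inhibitor of metalloproteases, by 1.03 (0.90 to 1.16) and 1.18 (1.03 to 1.34), which without adipocyte-rich nuclei were 0.54 and 1.03.

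**Figure D4:**
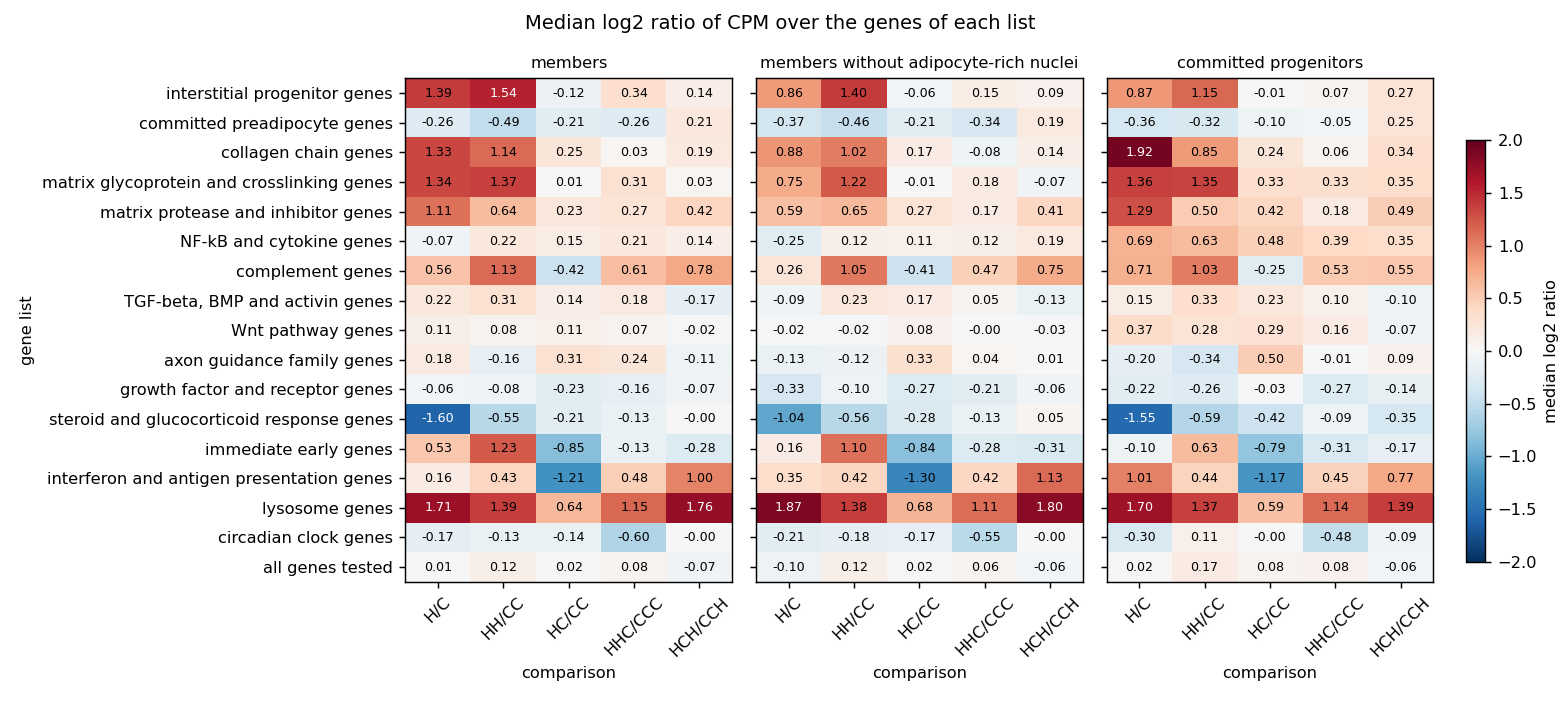
Median log2 ratio of CPM over the tested genes of each list, by comparison, in FIPs (left), in FIPs without adipocyte-rich nuclei (middle) and in committed progenitors (right), with red for higher and blue for lower. In FIPs the interstitial, collagen and glycoprotein lists lie between 1.14 and 1.54 in both obese comparisons and between −0.12 and 0.34 after WL.

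Inflammatory genes were mostly too low to compare. Of 31 NF-κB and cytokine genes, only 6 reached 50 CPM, and none of these was past 2-fold in H against C and 1 was higher in HH against CC. That gene was Csf1, the macrophage growth factor, at 140 CPM in H and 171 in HH, against 79.7 (C), 84.6 (CC) and 96.7 (CCC) on chow, with 91.9 (HC) and 136 (HHC) after WL, and 87.7 (CCH) and 129 (HCH) on late HFD. H, HH, HHC and HCH had the most, while CCH, HC and chow had under 100 CPM. The FIPs of H, HH, HHC and HCH also had the most macrophage-marker RNA. Without adipocyte-rich nuclei none of 7 genes that reached 50 CPM was past 2-fold in either obese comparison, and Csf1 stood at 0.90 in HH against CC. The chemokine Ccl2 (28.0 CPM in the mean) and the cytokine Il6 (0.235 CPM) were under the limit and were not compared.

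Of 8 complement genes, 3 were higher and 2 lower in H against C and 4 higher and 1 lower in HH against CC, with C3, C1ra and Serping1 higher in both and Cfd, an adipocyte product, lower in both. C3, the central complement component, had 207, 151 and 143 CPM in the chow libraries C, CC and CCC, 417 (H) and 586 (HH) in the obese ones, 162 (HC) and 389 (HHC) after WL, 170 in CCH and 499 in HCH. H, HH, HHC and HCH did not overlap the other 5 libraries, and HHC stood at 1.45 (1.23 to 1.67) against CCC. In H, HH, HHC and HCH, 93.7% to 97.9% of FIPs had at least 3 macrophage markers. The part of macrophage RNA in the C3 of FIPs was not tested. Non-progenitor nuclei carried C3 too, from 75.8 CPM in CCC to 481 in HH, below FIPs in each library. Without adipocyte-rich nuclei C3 stood at 0.56 in H against C and 1.89 in HH against CC, and none of the 8 genes was higher in both.

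Of 23 TGF-β, BMP and activin genes, 1 was higher and 2 lower in each obese comparison. Beside this, 10.2% of all genes were higher and 8.31% lower in H against C, and 11.6% and 9.12% in HH against CC. Fstl1 was higher in both (483 CPM in C and 1460 in H, 349 in CC and 1117 in HH) and Bmpr1b, a BMP receptor, and Ltbp3, a latent TGF-β binding protein, were lower in both and also in both WL comparisons. Without adipocyte-rich nuclei Bmpr1b was past 2-fold in these 4, while Ltbp3 stood at −0.22 and −1.42 in the obese and −1.46 and −0.97 in the WL comparisons. Of 13 Wnt pathway genes, none was higher and 2 and 1 were lower in the obese comparisons, the receptor gene Fzd4 in both, though at −0.54 and −1.05 without adipocyte-rich nuclei. Axon guidance genes had 1 of 14 higher and 2 lower in H and 4 higher and 1 lower in HH, with Sema3d higher and Sema5a lower in both. Without adipocyte-rich nuclei Sema3d stood at 0.70 and 1.03 and Sema5a at −1.33 and −1.24. After WL 2 axon guidance genes were higher in HC and none in HHC, beside 3.39% and 3.25% of all genes.

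Growth factor and receptor genes went both ways. Of 20, 3 were higher and 6 lower in H against C and 2 higher and 4 lower in HH against CC. Beside this, 10.2% of all genes were higher and 8.31% lower in H against C, and 11.6% and 9.12% in HH against CC. Pdgfrb had 134 CPM in H and 180 in HH, against 26.4 (C), 86.2 (CC) and 83.4 (CCC) on chow, with 93.5 (HC) and 118 (HHC) after WL, and 48.4 (CCH) and 87.2 (HCH) on late HFD. It was higher in both, together with the FGF receptor gene Fgfr2, and C stood below every other library.

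Ghr, the growth hormone receptor, Insr, the insulin receptor, and Vegfa, the angiogenic factor, were lower in both. Vegfa had 322 (C), 187 (CC) and 197 CPM (CCC) on chow, 67.4 (H) and 83.9 (HH) in obesity, 76.7 (HC) and 58.3 (HHC) after WL, and 91.7 (CCH) and 44.7 (HCH) on late HFD. The 3 chow libraries were thus above all others, and Vegfa stayed lower after WL, by a log2 ratio of −1.29 (−1.63 to −0.96) in HC and −1.76 (−2.07 to −1.45) in HHC. Non-progenitor nuclei of C had 276 CPM of Vegfa and 11713 of Ghr, against 322 and 13742 in its FIPs. Without adipocyte-rich nuclei Vegfa stood at −1.10 and −1.04 in the obese and −1.97 and −1.63 in the WL comparisons, and Insr at −0.81 and −1.40 in the obese ones, where adipocyte markers were still lower as well.

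Of 8 steroid and glucocorticoid response genes, 5 were lower in H against C (median −1.60). In HH against CC 3 were lower and 1 was higher (−0.55). With C, of HH's own set, as control of HH, 5 of 8 were lower and none higher (−1.45), beside 7.36% of all genes lower and 10.4% higher. Without adipocyte-rich nuclei 4 were lower in H (−1.04), and in HH 3 were lower with CC as control (−0.56) and 3 with C (−0.71). Of all genes, 3.62% were lower in HH against C without these nuclei. Esr1, the oestrogen receptor α, had 684, 814 and 489 CPM in the chow libraries C, CC and CCC, 206 (H) and 151 (HH) in the obese ones, 259 (HC) and 203 (HHC) after WL, 326 in CCH and 308 in HCH. The 3 chow libraries were above the other 6, and the WL ratios were −1.65 (−1.83 to −1.48) and −1.27 (−1.44 to −1.10). Non-progenitor nuclei of chow had more of it than FIPs, 894 to 1096 CPM. Tsc22d3, a glucocorticoid-induced leucine zipper, stood at −2.92 (−3.28 to −2.59) in H and −1.47 (−1.69 to −1.25) in HH.

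Zbtb16, a zinc finger transcription factor, had 432 CPM in H and 702 in HH, against 2244 (C), 2062 (CC) and 1608 (CCC) on chow, with 1754 (HC) and 922 (HHC) after WL, and 925 (CCH) and 1097 (HCH) on late HFD. HC alone was within the range of chow. Fkbp5, a glucocorticoid-induced chaperone (1112 CPM in C, 400 to 617 elsewhere), was high in C alone. C had as much of it in non-progenitor nuclei, 1170 CPM.

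Of 18 lysosome genes, which include cathepsins, 11 were higher in H against C, HH against CC, HHC against CCC and HCH against CCH. In HC against CC 5 were higher. The medians of the list were 1.71, 1.39, 1.15, 1.76 and 0.64 in that order. Ctsd, cathepsin D, had 39.6 (C), 54.8 (CC) and 70.9 CPM (CCC) on chow, 870 (H) and 836 (HH) in obesity, 262 (HC) and 1000 (HHC) after WL, and 58.9 (CCH) and 474 (HCH) on late HFD. In non-progenitor nuclei of the same libraries it was higher in each, with 67.3 to 102 CPM in C, CC, CCC and CCH and 402 to 1603 in the others. Of the 22 genes listed, at most 2 had as many CPM in FIPs as in non-progenitor nuclei of H, HH, both WL libraries and HCH, the libraries where macrophage markers were high. Committed progenitors had like ratios of Ctsd, 4.46 in H against C and 3.65 in HHC against CCC.

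Immediate early genes, which respond to handling as well as to signals, had 2 of 5 higher in H and 4 in HH, and 2 lower in HC (1, 4 and 1 without adipocyte-rich nuclei). Interferon and antigen presentation genes had 2 of 6 higher in H, 1 in HH, 3 lower in HC, 1 higher in HHC and 3 higher in HCH. Of all genes, 10.2% were higher in H, 11.6% in HH, 3.25% in HHC and 5.5% in HCH, and 3.41% were lower in HC. B2m, the light chain of MHC class I, had 80.4, 267 and 215 CPM in the chow libraries C, CC and CCC, 209 (H) and 343 (HH) in the obese ones, 75.9 (HC) and 283 (HHC) after WL, 84.2 in CCH and 366 in HCH. C, HC and CCH stood apart from the other 6, in non-progenitor nuclei as well (120 to 158 CPM against 267 to 492). Of 7 clock genes 1 was higher in HH against CC, and 2 of 26 cell cycle genes reached 50 CPM, too few to describe. Of 12 committed preadipocyte genes, Pparg, the adipogenic master regulator, and Fabp4, a fatty acid carrier, were lower in both obese comparisons. Without adipocyte-rich nuclei neither was lower in both, while Fmo2, a monooxygenase, was (−1.16 and −1.02), and Pparg was lower in both WL comparisons (−1.17 and −1.89).

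Genes were then named by the size of their change in both obese comparisons. With predicted, ribosomal and mitochondrial genes set aside, 253 genes were higher and 248 lower, outside the range of chow and past 2-fold in both, of which 119 and 16 had levels in FIPs not below those of non-progenitor nuclei. The other 134 and 232 were carried more by other cells: the highest included the macrophage genes Trem2, Cd68, Tyrobp, Mmp12, Lyz2 and Gpnmb, and the lowest the adipocyte genes Trhde, Pcx, Cyp2e1 and Pck1.

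Of the higher genes that met this level, Lum, Pard3bos1, Postn, Glp2r, Cd248, Sox5os4, Dact2, Nupr1, Bgn and Col8a1 were highest. Among them Lum, Pard3bos1, Postn, Glp2r, Cd248 and Nupr1 were under 50 CPM in every chow library. They thus reached the mean of 50 CPM through the libraries where they were high. Lum, the proteoglycan lumican, had 284 CPM in H and 238 in HH, against 17.8 (C), 17.0 (CC) and 28.5 (CCC) on chow, with 9.59 (HC) and 40.3 (HHC) after WL, and 51.4 (CCH) and 187 (HCH) on late HFD. Its ratios were 3.99 (3.68 to 4.32) and 3.81 (3.29 to 4.37) in obesity, −0.83 (−1.92 to 0.17) in HC and 0.50 (−0.05 to 1.06) in HHC. Glp2r, the receptor of glucagon-like peptide 2, had 13.6 (C), 7.45 (CC) and 19.9 CPM (CCC) on chow, 133 (H) and 148 (HH) in obesity, 23.2 (HC) and 48.3 (HHC) after WL, and 57.4 (CCH) and 62.0 (HCH) on late HFD. Every library with HFD in its history was above chow, though in HC and HHC non-progenitor nuclei had more of it (25.8 and 75.1 CPM).

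Cd248, endosialin, a stromal surface protein, had 139 CPM in H and 117 in HH against 14.9 to 30.5 in chow, and Nupr1, a stress-induced nuclear protein, 167 and 198 against 15.4 to 33.1. Sox5os4 and Pard3bos1 are transcripts named as antisense to Sox5 and Pard3b, and whether the counting used strand is not given in the sources used here. Pard3bos1 had 134 CPM in H and 193 in HH against 11.1 to 41.7 in chow, and 170 in HHC.

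Chst1, Acss3, Fyb2, Shisa9, Zbtb16, Rtl4, Zfp385b, Aox1, Dchs2 and Amph were the lowest. Chst1, a keratan sulfate sulfotransferase, had 116, 218 and 123 CPM in the chow libraries C, CC and CCC, 17.6 (H) and 27.8 (HH) in the obese ones, 72.7 (HC) and 46.0 (HHC) after WL, 46.4 in CCH and 32.2 in HCH. All 3 chow libraries were above the other 6. Acss3, a mitochondrial acyl-CoA synthetase, had 605 to 1259 CPM in chow, 234 (H) and 241 (HH) in obesity, 335 (HC) and 348 (HHC) after WL, and 504 (CCH) and 446 (HCH) on late HFD. Rtl4, a retrotransposon-derived gene, was at −3.35 (−3.98 to −2.77) in H and −1.49 (−1.84 to −1.15) in HH.

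Amph, which encodes amphiphysin, an endocytosis protein, stood at 20.8 CPM in H against 54.9 in C and 41.0 in HH against 90.5 in CC. Left to the few FIPs without macrophage markers, its ratios turned to 0.18 and 0.28, on 33 and 42 nuclei.

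**Figure D5:**
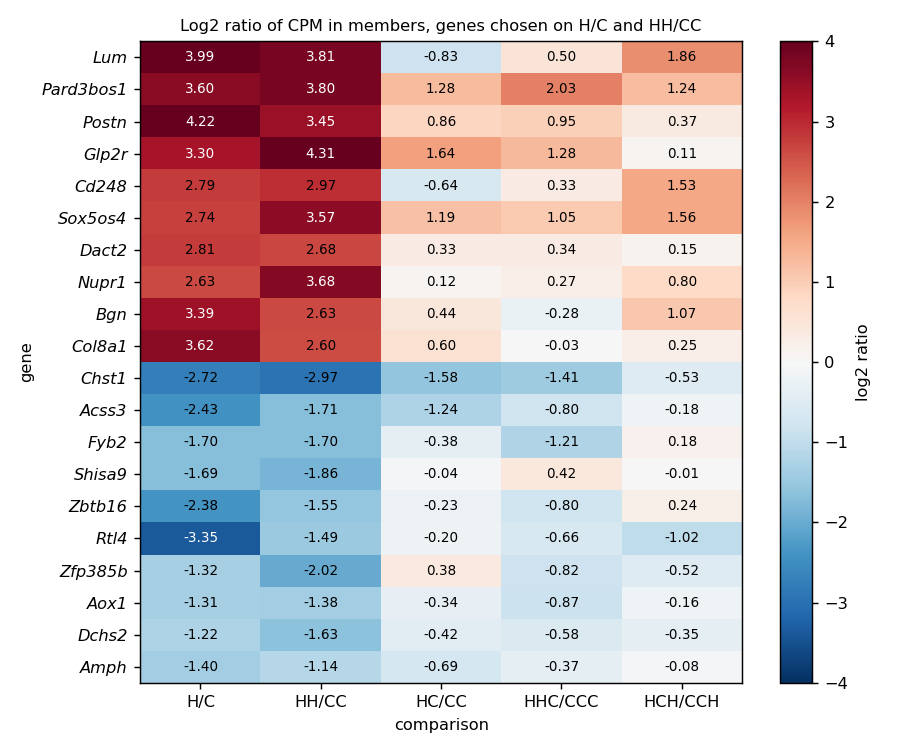
Log2 ratio of CPM in FIPs, printed in each cell, for the 10 genes named as higher and the 10 named as lower in both obese comparisons, in all 5 comparisons, with red for higher and blue for lower. Lum lies at 3.99 in H against C and 3.81 in HH against CC, and at −0.83 and 0.50 after WL, while Chst1 is below 0 in all 5.

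After WL, 60 genes were higher and 57 lower in both comparisons and outside the range of chow. Of these, 59 and 55 did not meet the level, taken here in HC and HHC for higher genes and in CC and CCC for lower ones. The rest were Mmp2, higher in both, and Chst1 and Hsd3b7, lower in both. Chst1 stood at −1.58 (−1.93 to −1.25) in HC and −1.41 (−1.78 to −1.05) in HHC. Hsd3b7, an enzyme of bile acid and oxysterol metabolism, had 17.6 CPM in HC against 35.7 in CC and 20.8 in HHC against 46.4 in CCC, on 22 and 44 UMIs, while H and HH were above chow at 73.0 and 87.3.

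HCH against CCH compares mice with and without an earlier obese phase, both on 4 weeks of HFD. Of 170 genes past 2-fold and higher, on the same terms of naming, 22 were not below non-progenitor nuclei, and the highest were Lum, Col1a1, Ly6c1, Aebp1 and Sparcl1. Lum stood at 1.86 (1.65 to 2.07), Col1a1 at 1.74 (1.54 to 1.93) and Aebp1, a collagen-binding carboxypeptidase-like protein, at 1.62 (1.44 to 1.79). Of 36 lower, 3 were not below non-progenitor nuclei of CCH, namely P4ha1, a collagen prolyl hydroxylase (−1.07, −1.22 to −0.92), Rtl4 (−1.02) and the cochaperone Chordc1 (−1.01).

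In this comparison 1 of 17 collagens, 1 of 17 interstitial genes and 3 of 20 matrix glycoprotein genes were higher, beside 5.5% of all genes. CCH itself, compared with C of the same set after 4 weeks of first HFD, had 119 genes (2.76%) higher and 197 (4.57%) lower, with 7 of 17 interstitial, 7 of 17 collagen and 10 of 20 matrix glycoprotein genes higher and none lower (medians 0.97, 0.91 and 1.01). Without adipocyte-rich nuclei 39 genes (0.904%) were higher and 63 (1.46%) lower, and 4, 3 and 4 genes of these lists were higher (medians 0.47, 0.58 and 0.56). CCH was also older than C (30 against 18 weeks) and, like CC, had been moved to standard chow, so these cannot be told apart from HFD here. CC against C, with all FIPs, had 237 genes (5.5%) higher and 116 (2.69%) lower. Fn1 (1126 CPM in CCH and 1193 in HCH) differed by 0.08 (0.03 to 0.14) on the log2 scale.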

How the data were processed

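Nuclei of epididymal fat were profiled with 10x 3′ v3.1 chemistry. Per the labels and methods, the authors made the deposited UMI counts with Cell Ranger 6.1.2 (introns included, GRCm38), and the submitters' notes also name Seurat 4.1.0. The 9 deposited matrices held 91687 barcodes and 32285 genes as raw counts, of which 32158 IDs matched GENCODE mouse release M21. The members and gene lists were chosen with earlier results of these data known.

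FIPs were selected by the stated rule, without removing doublets, and Scrublet scores were used as an alternative (712 FIPs, 5.58% to 12.8% per library). Counts were summed per library over FIPs, over committed progenitors (mirrored rule) and over non-progenitor nuclei, and given as CPM without mitochondrial genes and Malat1. Adipocyte-rich nuclei had a share of UMIs in 10 adipocyte markers above the 95th percentile of macrophage nuclei. A zero was set to a floor of 3 counts over a group's nuclei for bounds. Intervals (95%) were Clopper-Pearson, Newcombe, exact Poisson and exact conditional for ratios. Named genes were up to 10 (obese) and 5 (WL) per direction, outside the range of chow and ranked by the smaller change. For HCH they were up to 5 per direction with the largest change. In the libraries where high, these genes were not below non-progenitor nuclei. Against committed progenitors, the 10 highest and 5 lowest by the least extreme ratio were named. Predicted, ribosomal, mitochondrial and rule genes were not named. Of the listed genes, the highest in CPM and those past 2-fold in both obese comparisons were named as well. Steps were tested on simulated data and used Python 3.11.15, scanpy 1.11.5, scipy 1.17.1 and edgeR 4.0.16 (TMM only). Alternatives changed the rule's minimum, depth, doublets, limits, scaling, filters and nuclei left out.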

Additional observations from a re-analysis of the deposited data

How the results depend on the processing

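No paired analysis was possible because each group had 1 library. With no replicates, every value rests on 1 library, and depth limits genes under 50 CPM. Alternatives without adipocyte-rich nuclei and with a UMI of Dpp4 or Pi16 were chosen after seeing the data.

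Shares of the gate kept their direction except for HH against CC, which was −6.11 points with a minimum of 2 UMIs, 1.31 with 4, −16.4 against C, 3.44 in FIPs with Dpp4 or Pi16 and −6.18 without adipocyte-rich nuclei. With a minimum of 2 and of 4, H against C was −17.5 and −11.6, HC against CC −15.1 and −9.47, and HHC against CCC −12.3 and −3.80. With Dpp4 or Pi16 required, H against C was −2.58, HC −8.53, HHC −3.19 and HCH −17.9. Without adipocyte-rich nuclei H was −22.3, HC −15.6 and HCH −26.9. Thinned, H was −17.0 and HHC −4.02. With no upper limit on genes HCH was −17.6.

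Of all nuclei, with a minimum of 2 and of 4, H was −10.6 and −8.01, HC −8.77 and −5.56, HH −9.56 and −4.88, HHC −4.85 and −1.48. Thinned, H was −7.21, HC −4.36, HH −2.97 and HHC −1.62. With Dpp4 or Pi16, H was −4.08, HC −4.81, HH −2.65, HHC −1.25 and HCH −6.76. Without adipocyte-rich nuclei H was −10.7, HC −8.39, HH −8.66 and HCH −10.4, and with no upper limit HH was −8.30.

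Genes past 2-fold, each given for H, for HH, for HC, for HHC and then for HCH, were 172, 212, 67, 61 and 79 higher and 216, 215, 66, 119 and 27 lower at 100 CPM. At 20 CPM they were 1039, 1173, 356, 334 and 569 higher and 604, 713, 365, 411 and 67 lower. With no filter they were 7799, 5072, 3549, 2740 and 4927 higher and 1616, 3614, 1838, 3948 and 636 lower. There a zero was raised to 3 counts, so a gene at 0 in a library could count as higher in it. The counts with no filter thus also hold effects of this floor and of depth, and they are no measure of change or its direction. With no upper limit on genes 237 were higher in HC, 236 higher in HHC and 23 lower in HCH. Without adipocyte-rich nuclei 216 were lower in H and 15 in HCH. Without nuclei with 3 or more macrophage markers (13 FIPs left in HHC, 33 in H) 466 were higher in HHC and 651, 641, 596 and 250 lower in H, HH, HHC and HCH. There Amph turned to 0.18 in H and 0.28 in HH.

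Of 54 named gene ratios, 52 stayed past 2-fold with TMM, 52 without doublets, 52 with a minimum of 4 and 52 without adipocyte-rich nuclei. With Dpp4 or Pi16 51 stayed so, with no upper limit 47 and without nuclei with macrophage markers 43. With C as control of HH 18 of 20 did. All 54 stayed so after subtracting 10% of the CPM over all nuclei of the library as assumed free RNA. Named genes had been chosen for levels in FIPs not below those of non-progenitor nuclei in the libraries where high. The subtraction could thus take little from these levels, so this last count cannot decide how far free RNA shaped the ratios. With C as control of HH, list medians moved to 1.17 for matrix proteases, −1.45 for steroid response and 2.03 for lysosome genes.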
